A study of Mus musculus with 6 samples.

Results

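A set of genes of granulocyte-macrophage colony-stimulating factor (GM-CSF) signalling and of the alveolar macrophage were followed across the cell classes of the neonatal mouse lung. They were Csf2, Csf2ra, Csf2rb, Csf1, Csf1r, Pparg, Marco, Chil3, Ear1 and Ear2, taken by gene symbol as 10 of the 32285 genes in the count tables. Each was read in the class that makes a ligand and in the classes that carry its receptor, in 6 single-cell libraries of wild-type C57BL/6N lung. A female and a male library were made for each of 3 conditions: room air at postnatal day 1, room air at day 21, and day 21 after neonatal hyperoxia (95% oxygen during days 1 to 5, then room air). Each library pooled lung tissue of 3 mice and was sorted for live cells only.

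GM-CSF, encoded by Csf2, is the cytokine that turns fetal monocytes into alveolar macrophages in the first days of air breathing. It binds a receptor of the specific chain Csf2ra and the signalling chain Csf2rb, acts through STAT5, and induces PPARγ (Pparg), the transcription factor of the mature cell. Csf1 (M-CSF) and its receptor Csf1r form the parallel axis that most other macrophages and monocytes depend on. Marco is a scavenger receptor for inhaled particles, Chil3 (Ym1) a secreted chitinase-like protein, and Ear1 and Ear2 are ribonucleases of the eosinophil-associated family. Mature alveolar macrophages are known to make all 4.

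The libraries held 122173482 to 163649658 unique molecular identifiers (UMIs, each standing for 1 captured RNA molecule), and 7074 to 11543 cells of a library carried one of the authors' class names, with medians of 8329 to 9703 UMIs per cell. Levels are given as CPM, the UMIs of a gene relative to the UMIs of all genes in the cells of a class in a library, scaled to a total of 1000000. In each pair of values the female library comes first. Since a condition had 1 pooled library per sex, no test was possible within a sex, and p-values do not measure the spread between mice. With so few pools the tests also draw on the spread of the other genes in a class. A p-value or SE can therefore be smaller than a gene's own spread between pools would give. The female hyperoxia library stood apart, because 43.8% of its cells held no Xist UMI, against 15.6% and 22.8% in the female room air libraries at days 1 and 21. Xist marks the inactive X of female cells, and the tests of hyperoxia are also given with those cells of this library left out. Any 2 libraries shared 9 to 37 cell barcodes, at most 0.376% of the smaller one.

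Csf2 (chr11:54247271-54249667, minus strand, GRCm38, as are all gene positions here) was a rare transcript with a narrow set of sources, and these sources differed between the ages. The day 1 libraries held 200 and 527 Csf2 UMIs in cells with a class, the room air libraries at day 21 held 185 and 74, and the hyperoxia libraries 164 and 133. At day 1, the 2 classes of type 2 alveolar epithelial cells, the cells that make surfactant, held 91% and 95.6% of these UMIs. At day 21 they held 20.5% and 2.7% in room air and 12.2% and 12% after hyperoxia, while the class the authors named T Reg held 68.6% and 79.7%, then 79.3% and 75.2%. Shares of a library's UMIs follow how many cells of each class were captured, and the male room air library at day 21 had only 7 type 2 cells.

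Within the epithelium, the Csf2 level did not follow these shares. In the class named AT2 it was 13.4 and 14.8 CPM at day 1, 12.6 and 13.2 in room air at day 21 (the last from 2 UMIs) and 17.7 and 10.4 after hyperoxia. The AT2 Lyz1+ class, present at day 1 only, stood at 20.5 and 14.8 CPM. Both room air libraries of day 21 lay below both of day 1, but the counting intervals overlapped (8.95 to 17.4 and 1.60 to 47.6 CPM at day 21), and the hyperoxia values lay on either side of these 4 AT2 values. No test could be run because 1 library had fewer than 50 AT2 cells. A Csf2 UMI was found in 15.5% to 28.6% of AT2 cells at median depths of 18800 to 24277 UMIs. In general capillary endothelium (gCap), a class not known to make it, the share was 0 to 0.178% at 5203 to 8693.5 UMIs. With every cell thinned to 2000 UMIs the shares were 0 to 5.56% in AT2 cells and 0 to 0.129% in gCap.

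T Reg cells, annotated at day 21 only, had the highest Csf2 level of any class with more than 8 cells, at 44.6 and 43.9 CPM in room air and 39.9 and 31.3 CPM after hyperoxia (127, 59, 130 and 100 UMIs). The hyperoxia libraries were the lower pair, without overlap, but the log2 change of -0.30 (SE 0.21) was not called by edgeR's quasi-likelihood test (adjusted p = 1), nor was that of -0.58 with the Xist-free cells left out (unadjusted p = 0.0344, adjusted p = 1). The test called 0% of the 11068 genes it read in this class. Of these, 289 had an unadjusted p under 0.05, and DESeq2 called 1 gene. NK cells also held Csf2 in every library, from 2.02 to 11.4 CPM over the 6 libraries, with 4 to 14 UMIs each. Their levels at the 2 ages could not be separated (log2 change 0.01, SE 0.86, adjusted p = 0.991 by edgeR). Alveolar macrophages held 1 Csf2 UMI in all 6 libraries, in female room air at day 21, and where none was found the floor of 3 UMIs corresponds to 0.431 to 1.31 CPM.

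**Figure D1:**
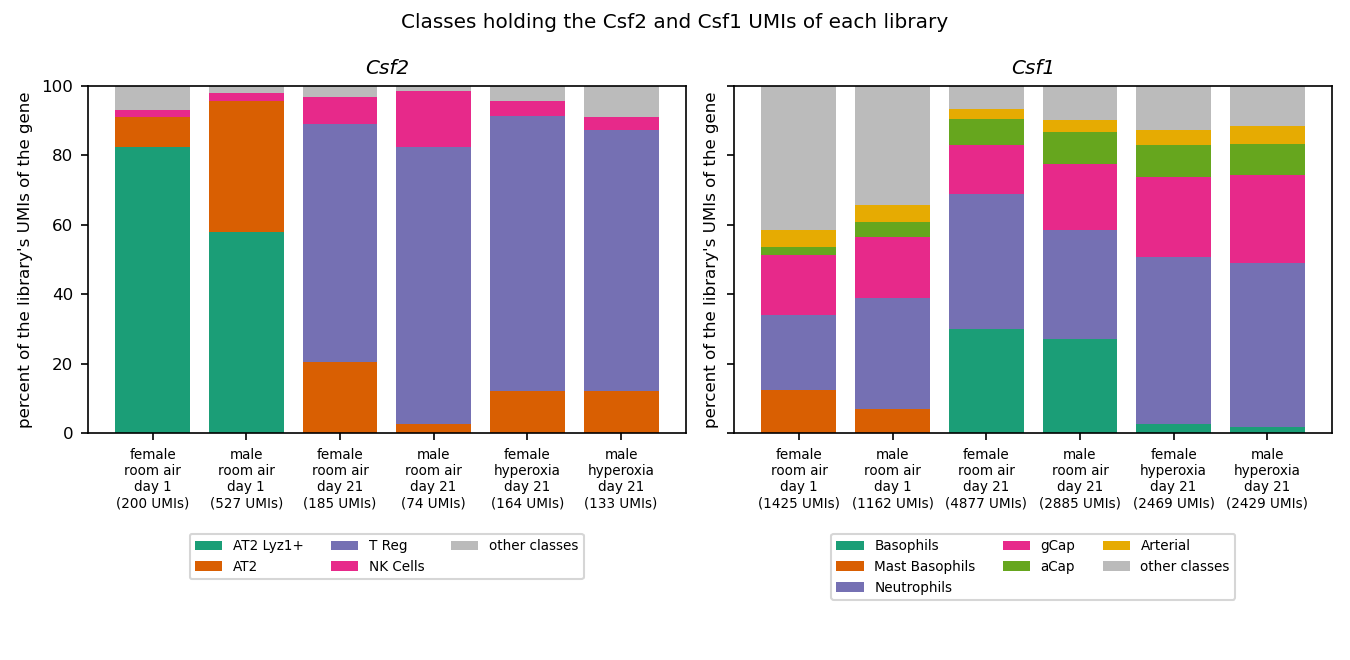
Where the ligand transcripts came from: the stacked bars give the percent of a library's Csf2 (left) and Csf1 (right) UMIs held by each cell class, 1 bar per library. Type 2 epithelial classes fill 91% and 95.6% of the Csf2 bars at day 1 and T Reg 68.6% to 79.7% at day 21, and the basophil part of the Csf1 bars shrinks from 29.9% and 27.2% in room air to 2.71% and 1.89% in the hyperoxia libraries.

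The Csf2-holding cells of the T Reg class did not look like the rest of it. Foxp3, the transcription factor that defines regulatory T cells, was found in 0, 0, 1 and 0 of the 65, 24, 49 and 60 cells with a Csf2 UMI (female and male room air, then female and male hyperoxia). Among the other cells of the class it was found in 12%, 18.9%, 23.6% and 24.2%. A T-cell receptor complex transcript (Cd3d, Cd3e or Trac) was present in 20.8% to 29.2% of the Csf2-holding cells and 58.1% to 61.1% of the others, lower in 4 of 4 libraries. Il1rl1, the receptor for the alarmin IL-33, went the other way, at 69.2% to 79.2% against 42.1% to 55.2%. The type 2 cytokines Il13 or Il5 were found in 20.8% to 30.8% against 5.26% to 15.7%, again higher in 4 of 4 libraries. Median depths were alike (9350 to 11215 UMIs against 9196.5 to 11646.5). Cells of 1 library are not replicates, so these shares are a description. No T-cell receptor complex transcript was detected in most of the Csf2-holding cells of each library.

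**Figure D2:**
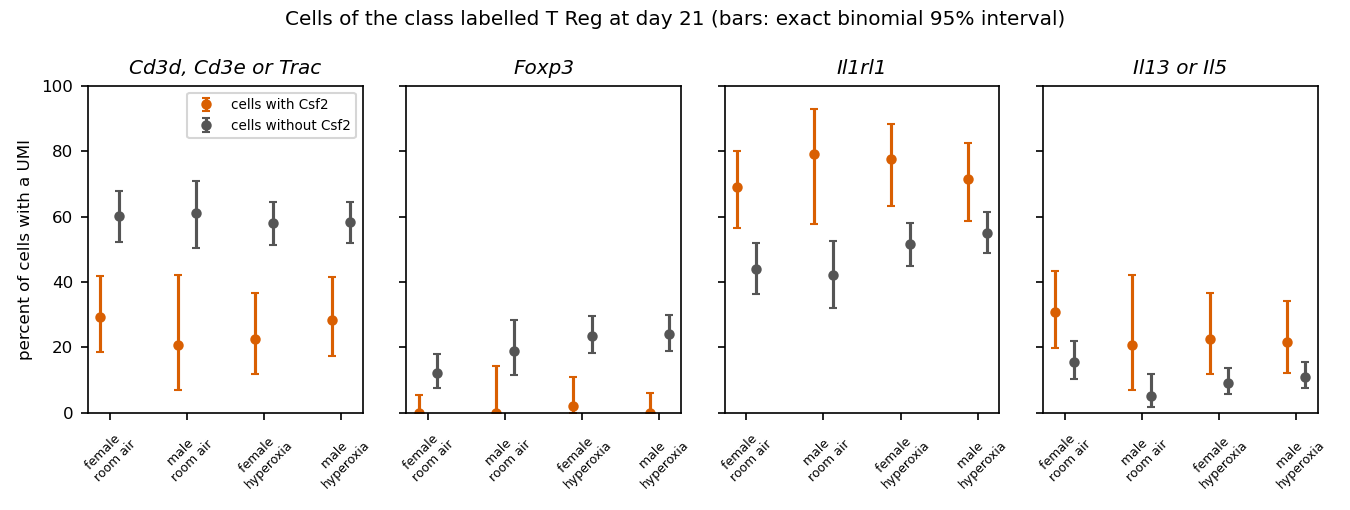
Percent of cells labelled T Reg that hold a T-cell receptor complex transcript, Foxp3, Il1rl1, or Il13 or Il5, in cells with and without a Csf2 UMI, in the 4 day 21 libraries, with exact 95% binomial intervals. Foxp3 reaches at most 2.04% of Csf2-holding cells and 12% to 24.2% of the others, while Il1rl1 lies at 69.2% to 79.2% against 42.1% to 55.2%.

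Csf1 (chr3:107741048-107760469, minus strand) came from many classes. The libraries held 1425 and 1162 of its UMIs at day 1, 4877 and 2885 in room air at day 21 and 2469 and 2429 after hyperoxia. Its highest level was in basophils, granulocytes annotated at day 21, at 2174 and 1596 CPM in room air and 916 and 1618 CPM after hyperoxia. The Mast Basophils class of day 1 followed at 552 and 350 CPM. Neutrophils stood lower, at 66.7 and 81.8 CPM at day 1, 186 and 163 in room air at day 21 and 242 and 171 after hyperoxia, but their number made them the largest single source in all 6 libraries (21.5% to 48% of Csf1 UMIs). The basophil label was borne out by its markers: Mcpt8, a basophil protease, was at 1442 and 1771 CPM in room air, and Ms4a2, a chain of the IgE receptor, at 849 and 949.

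Basophils were few after hyperoxia. They numbered 74 and 57 in room air and 5 and 2 after hyperoxia, and their part of a library's Csf1 was 29.9% and 27.2% in room air against 2.71% and 1.89%. The remaining 7 cells had median depths of 15388 and 14218.5 UMIs, against 8569.5 and 8004 in room air. With so few cells no level was tested.

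Capillary endothelium held less Csf1 after hyperoxia. In gCap it was 41.4 and 46.9 CPM in room air and 26.5 and 26.9 after hyperoxia, from 548 to 688 UMIs per library. In aerocytes (aCap), the capillary cells of gas exchange, it was 31 and 30.9 CPM against 18.5 and 14.1. Both hyperoxia libraries lay below both room air libraries in each class. By edgeR's quasi-likelihood test the log2 change was -0.71 (SE 0.09, adjusted p = 2.73e-05) in gCap and -0.93 (SE 0.12, adjusted p = 0.0109) in aCap. In gCap 1.19% of tested genes were called lower, and in aCap 0.223%. The call held in 9 of 11 alternatives in gCap (log2 change -0.79 to -0.62, adjusted p up to 0.084) and in 8 of 11 in aCap (-1.24 to -0.74, adjusted p up to 0.12). With the Xist-free cells of the female hyperoxia library left out it was -0.75 in gCap and -0.94 in aCap, both called. It was lost without the female hyperoxia library in gCap (-0.70, adjusted p = 0.0539) and without the male one in aCap (-0.74, adjusted p = 0.0779). Csf1 was tested in 13 classes, and 5 of them had an unadjusted p under 0.05 by edgeR. It was lower in gCap, aCap, arterial endothelium and matrix fibroblasts and higher in alveolar macrophages (1.53). The share of all genes at that threshold is not given here.

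With age, Csf1 was called higher in 6 and lower in 1 of 8 classes tested in room air, where 28.6% of all pairs of a gene and a class were called higher and 25.7% lower. DESeq2 called 3 of the 8, in either direction, and its share of all genes is not given here. In neutrophils the log2 change from day 1 to day 21 was 1.12 (SE 0.12, adjusted p = 1.07e-11, edgeR), in gCap 1.00 and in aCap 1.02. Arterial endothelium, venous endothelium and myofibroblasts were called higher as well, but venous endothelium lost the call without the male day 1 (0.82) or the female day 21 library (0.80), and myofibroblasts without the male library of day 1 (0.87) or day 21 (0.98). In alveolar macrophages Csf1 was called lower (log2 change -1.92, SE 0.47, adjusted p = 0.00138), but on 25 and 7 UMIs against 48 and 3. Its level was 10.9 and 2.18 CPM at day 1 and 4.06 and 0.431 at day 21, so the ages overlapped, and 7 of 11 alternatives kept the call, with an adjusted p up to 0.836. Without the female day 1 library the change was -0.27, without the male day 21 library -0.91 and without the female one -4.09.

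Both chains of the GM-CSF receptor were spread over the myeloid classes rather than limited to alveolar macrophages. Csf2ra (chr19:61223957-61228429, minus strand) was at 240 and 261 CPM in alveolar macrophages at day 1, not separated from the 253 and 198 CPM of the 32 and 11 nonclassical monocytes there. At day 21 it was 171 and 156 CPM there, below the 217 and 224 CPM of nonclassical monocytes and the 198 and 204 CPM of classical monocytes. Nonclassical monocytes were above classical monocytes in 4 of 4 day 21 libraries, at 200 and 213 against 184 and 178 CPM after hyperoxia, a difference that was not tested. Csf2rb (chr15:78325752-78353847, plus strand), the chain shared with the interleukin 3 and interleukin 5 receptors, peaked in basophils at 971 and 1001.4 CPM in room air. Alveolar macrophages followed at day 1 with 541 and 460 CPM, and at day 21 neutrophils, at 394 and 393 CPM in room air, exceeded the 318 and 298 CPM of alveolar macrophages. Among classes outside the myeloid and mast cell lineages the median Csf2rb level was 2.87 to 13.3 CPM per library.

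Most single alveolar macrophages held both chains. A UMI of each receptor chain was found together in 94.6% and 94.4% of alveolar macrophages at day 1, in 92.3% and 89.7% in room air at day 21 and in 77.9% and 80.5% after hyperoxia. Median depths ran from 14826 to 20502.5 UMIs. In gCap at most 0.728% of cells held both. At 2000 UMIs per cell the shares in alveolar macrophages were 22.3%, 17.5%, 15.6%, 12.9%, 8.89% and 9.42% in the same order, so the hyperoxia libraries were the lowest at equal depth too. These are also the libraries in which more cells of the class were marked as doublets (27.9% and 19.8%, against 6.24% and 6.32% in room air at day 21) and more held no Siglecf UMI (44.1% and 49%, against 20.7% and 22.4%). With doublets left out, both chains were found in 92.3% and 89.6% of cells in room air and in 74.5% and 80.6% after hyperoxia, and at 2000 UMIs in 15.2%, 13.2%, 11.3% and 9.72%. With the Xist-free cells left out the female hyperoxia share was 83% of 88 cells, or 6.82% at 2000 UMIs. Basophils, with Csf2rb in 98.6% and 100% of room air cells, held both chains in 8.11% and 8.77%.

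Csf1r followed another order among macrophages. It was highest in the Interstitial Macrophages 1 class (647 to 1469 CPM over the 6 libraries, 4 of which had 6 to 8 such cells) and in nonclassical monocytes at day 21 (869 to 918 CPM). Classical monocytes had 445 to 529 CPM at day 21. Alveolar macrophages had 105 and 67.8 CPM at day 1, 73.1 and 65.6 in room air at day 21 and 78.3 and 69.1 after hyperoxia, and these ranges overlapped.

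**Figure D3:**
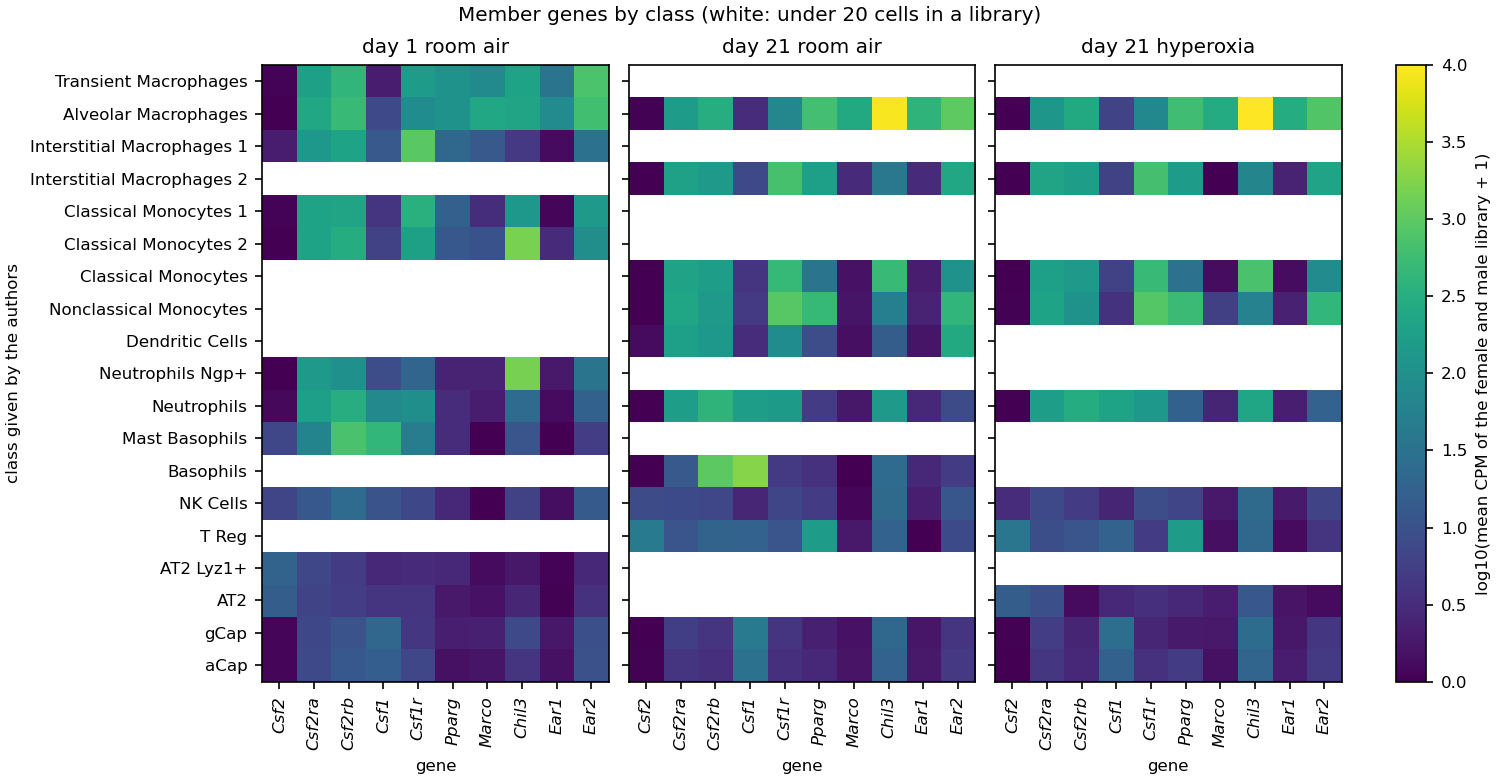
Heat map of the 10 genes in 19 cell classes, as log10 of the mean CPM of the female and male libraries plus 1, for each of the 3 conditions. White marks classes with under 20 cells in a library. Csf2 is limited to a few rows, the receptors span the myeloid rows, and Chil3 in alveolar macrophages goes from 269 and 155 CPM at day 1 to 10566 and 8039 CPM in room air at day 21.

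The alveolar macrophage class held 149 and 177 cells at day 1 (1.29% and 1.57% of cells), 609 and 348 in room air at day 21 (7.16% and 4.92%) and 136 and 308 after hyperoxia (1.63% and 3.38%). Its label was checked against defining markers. At day 21 the class had Siglecf, the surface lectin that marks alveolar macrophages, at 108 and 97.4 CPM in room air, but at day 1 Siglecf stood at 13.1 and 4.36 CPM. The fatty acid binding protein Fabp4 was at 1098 and 2055 CPM at day 1 and was called lower at day 21 (log2 change -4.64, SE 0.36). Car4 was at 310 and 472 CPM at day 1 and 497 and 462 in room air at day 21 (log2 change -0.03). Itgax, Mrc1 and Krt79 were called higher at day 21. The summed level of these 6 identity markers overlapped between the ages, at 1777 and 2897 CPM at day 1 and 2897 and 2775 in room air at day 21. A second macrophage class of day 1, Transient Macrophages (1272 and 1212 cells), held 66.1% and 68.1% of the Ear1 UMIs of those libraries and also carried Marco (66.5 and 92 CPM) and Ear2 (748 and 736 CPM). An age comparison of alveolar macrophages therefore sets a class low in Siglecf against one that is high in it.

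Chil3 is encoded on the minus strand at chr3:106147554-106167564, Ear1 on the minus strand at chr14:43818765-43875517 and Ear2 on the plus strand at chr14:44102654-44103534 (GRCm38, all protein coding). The Ear1 and Ear2 transcripts are identical at 690 of 713 aligned bases (96.8%), and their promoters at 294 of 297 (99%). Reads from a stretch that the 2 genes share cannot be told apart, so their separate counts are uncertain. The same holds for Csf2rb and its neighbour Csf2rb2, whose transcripts are identical at 90.8% of 4682 aligned bases. The 2 promoters are shown because these near-identical windows went with different levels. They are the RefSeq windows of 250 bases before to 50 after the gene start on GRCm38.p6, at chr14:43819590-43819889 for Ear1 (a RefSeq start inside the longer gene model given above) and chr14:44102404-44102703 for Ear2. Capitals mark bases that differ or have no partner in the alignment.
Ear1: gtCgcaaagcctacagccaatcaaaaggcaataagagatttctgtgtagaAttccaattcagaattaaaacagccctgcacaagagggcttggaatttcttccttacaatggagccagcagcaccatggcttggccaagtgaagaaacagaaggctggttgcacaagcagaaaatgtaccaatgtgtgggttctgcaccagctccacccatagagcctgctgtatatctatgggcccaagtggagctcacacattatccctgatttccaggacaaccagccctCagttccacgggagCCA
Ear2: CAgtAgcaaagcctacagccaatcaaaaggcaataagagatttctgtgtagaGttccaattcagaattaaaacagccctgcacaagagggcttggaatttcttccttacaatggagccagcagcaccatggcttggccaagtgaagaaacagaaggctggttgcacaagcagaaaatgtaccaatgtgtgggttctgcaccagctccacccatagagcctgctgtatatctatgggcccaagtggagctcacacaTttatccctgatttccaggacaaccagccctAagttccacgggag

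The Chil3 window, at chr3:106167515-106167814 of the same build, is shown for the gene with the steepest age change. STAT5, which carries the GM-CSF signal, binds the palindrome TTCNNNGAA, and PU.1, the myeloid factor it works with, binds AGGAAGT. Capitals mark a match to the first at base 79 and a match to the second, on the other strand, at base 191.
Chil3: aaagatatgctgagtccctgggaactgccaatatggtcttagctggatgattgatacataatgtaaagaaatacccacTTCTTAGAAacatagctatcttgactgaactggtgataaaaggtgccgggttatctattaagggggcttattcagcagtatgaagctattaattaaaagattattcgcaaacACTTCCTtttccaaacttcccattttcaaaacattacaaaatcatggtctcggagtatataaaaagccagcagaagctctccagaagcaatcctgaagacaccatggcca
Searched on both strands, the first motif occurs in 8.3% and the second in 9.35% of 32851 RefSeq promoters of that length. Of the 10 genes, 8 had an entry, with 10 windows, and Chil3's was the only window of the 10 with a match to either. A match is a description of letters and not a binding site.

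In room air, alveolar macrophages went from Chil3-poor to Chil3-rich between day 1 and day 21. Chil3 stood at 269 and 155 CPM at day 1 and at 10566 and 8039 CPM at day 21, a 35.3-fold difference in the fit (log2 change 5.14, SE 0.49, adjusted p = 5.75e-09, edgeR). The share of alveolar macrophages with a Chil3 UMI went from 14.1% and 13.6% to 98.5% and 98.9%. Pparg (chr6:115360951-115490399, plus strand) rose 4.62-fold, from 116 and 102 CPM to 659 and 627 CPM (log2 change 2.21, SE 0.21, adjusted p = 5.77e-09). Ear1 rose 3.73-fold, from 85.5 and 81.8 CPM to 390 and 409 CPM (log2 change 1.90, SE 0.19, adjusted p = 1.03e-08). For each of the 3 genes both day 21 libraries lay far above both day 1 libraries, and all 11 alternatives kept the call. The alternatives used the same deposited counts, so none of them separates age from the counting software, which differed between the ages as described below.

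The other 2 products did not pass. Marco (chr1:120474538-120505024, minus strand) was at 155 and 341 CPM at day 1 and at 270 and 265 CPM at day 21, so that it was higher at day 21 in the females and lower in the males. Its fitted log2 change of -0.15 (SE 0.23, adjusted p = 0.6 by edgeR) changed sign between alternatives. It was called higher without the male day 1 library (0.49, adjusted p = 0.0149) and lower without the female one (-0.80, adjusted p = 0.000176). With library totals in place of TMM scaling it was 0.21, and over alternatives its adjusted p ran up to 0.886. A Marco UMI was found in 32.2% and 39% of alveolar macrophages at day 1 and in 58.8% and 60.3% at day 21, where Ear1 was found in 95.1% and 94.8%. Ear2 was already at 692 and 553 CPM at day 1 and at 1051 and 979 CPM at day 21, higher in both sexes but without a call (log2 change 0.36, SE 0.25, adjusted p = 0.243). With library totals alone it was called (0.71, adjusted p = 0.0126).

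Receptors went down while Chil3, Pparg and Ear1 went up. Csf2ra fell from 240 and 261 CPM to 171 and 156 CPM (log2 change -0.97, SE 0.18, adjusted p = 7.8e-05, edgeR) and Csf2rb from 541 and 460 CPM to 318 and 298 CPM (log2 change -1.05, SE 0.21, adjusted p = 0.000164). Csf1r, at 105 and 67.8 CPM at day 1 and 73.1 and 65.6 CPM at day 21, had male values close to each other. Its fitted log2 change of -0.65 (SE 0.16, adjusted p = 0.00128) was called in 8 of 11 alternatives (adjusted p up to 0.16). With library totals alone it was -0.29 (adjusted p = 0.16), without a call, and DESeq2 gave -0.67 (adjusted p = 0.0572). It was -0.41 without the female day 1 library and lost its call without the male day 21 library (-0.56, adjusted p = 0.0534). For Csf2ra and Csf2rb both libraries of day 21 were below both of day 1, and all 11 alternatives kept both calls, with changes of -0.62 and -0.70 under library totals alone. Scaling set the size of all these changes in part. TMM put the fitted changes below the ratios of the printed CPM: with library totals alone, an alternative added after seeing the data, the median of all genes in the class moved by 0.36, and with upper-quartile scaling by -0.13. Of the 9 genes only Marco changed sign under either.

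In all, 7 of the 9 genes tested in alveolar macrophages were called by age, 3 higher and 4 lower, with a median log2 change of -0.15 against 0.04 over all genes tested. The background was large, since 53.8% of 10986 genes were called, 28.9% higher and 25% lower. The share of the 9 genes called is thus not a result about them. With library totals alone 4 of the 9 were called higher and 3 lower (median 0.21), and of all genes 4581 were called higher and 1533 lower, against 3171 and 2744 with TMM.

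**Figure D4:**
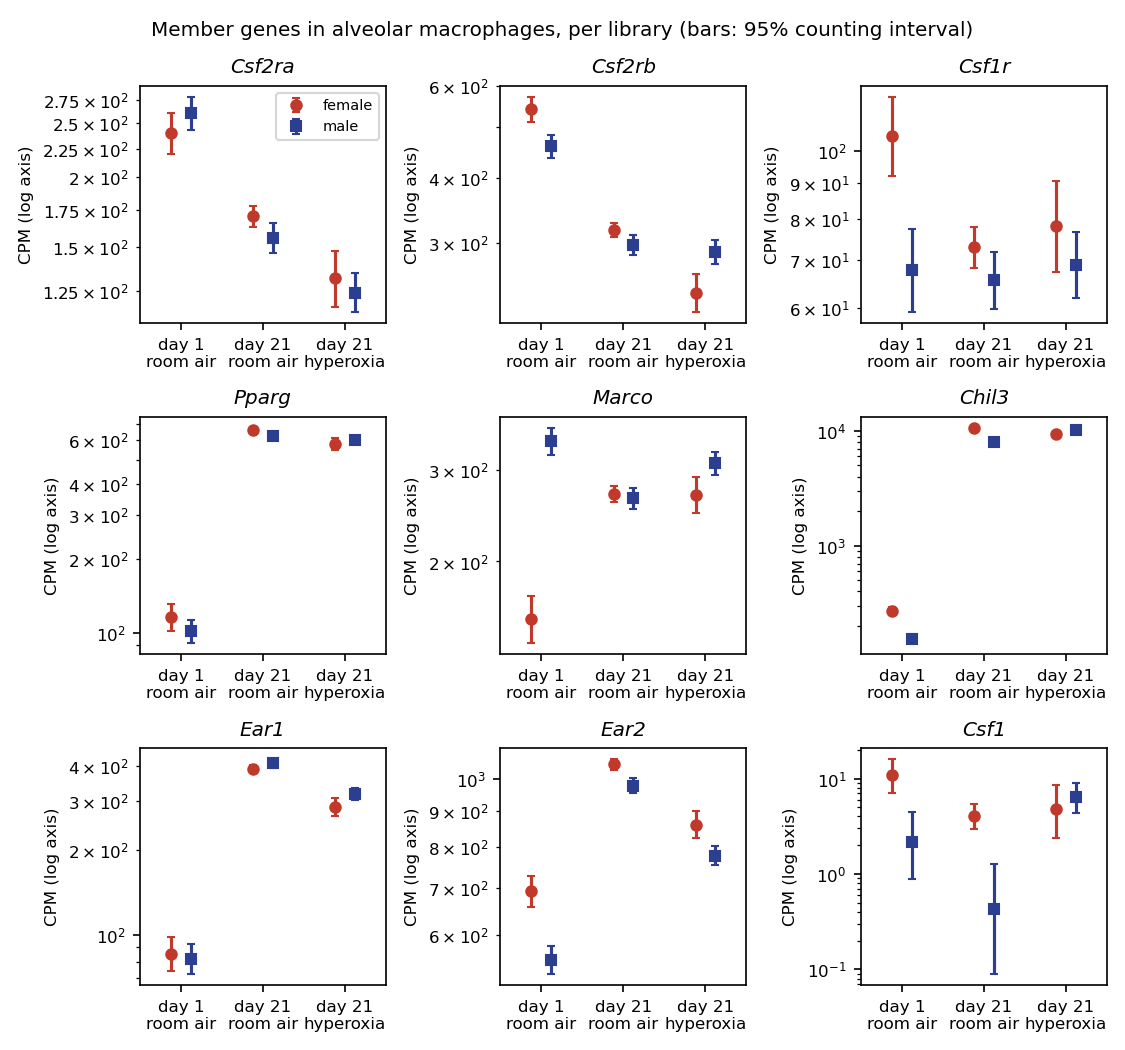
Levels of 9 of the 10 genes in alveolar macrophages (Csf2 is left out), in CPM on a log axis, 1 point per library with its exact 95% counting interval, red circles female and blue squares male. Chil3 goes from 269 and 155 CPM at day 1 to between 8039 and 10566 CPM at day 21, while Csf2ra and Csf2rb are lower in all 4 day 21 libraries than in both day 1 libraries.

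Age coincided with the counting software, version 6.0.0 of Cell Ranger for the day 1 matrices and 7.0.1 for day 21, per the file headers, and whether reads in introns were counted is not given in the sources used here. In alveolar macrophages the median log2 change by age was -0.60 in genes without introns and -0.69 in those with up to 1000 intron bases, and from there rose with intron length, to -0.21 among genes like Chil3, 0.67 among those like Ear1 and 1.46 among those with introns as long as Pparg's. In every other class tested by age the median also rose with intron length, from the genes with up to 1000 intron bases on. Among genes with introns as long as Pparg's it reached 1.08 (aCap) to 1.55 (NK cells). Age and software cannot be told apart, so in alveolar macrophages each of the genes is set beside the genes of its own intron length. Chil3, with 18379 intron bases, changed by 5.35 more than the median of its class of length, above 99.4% of 3385 genes. Ear1 (56023 intron bases) was 1.23 above its median and higher than 88.3% of its class of length, and Ear2 (162 bases) was 1.04 above, higher than 91.1%. The Ear1 length is that of the longer gene model. The RefSeq start inside it would leave far fewer intron bases, so its class of length depends on the model used. Pparg, with 126496 intron bases, was only 0.75 above the median of genes with such long introns and higher than 70.5% of them. Csf2rb was 1.25 and Csf2ra 0.47 below the median of genes of like intron length, with 6.1% and 23.8% of those genes lower still. The same differences were -1.71 for Csf1, -0.85 for Csf1r and -0.36 for Marco, with 3.63%, 11.3% and 29.1% of such genes lower.

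Chil3 was called higher by age in 8 of the 10 classes tested, also in endothelium and fibroblasts, where it is not known as a product. Of all pairs of a gene and a class 28.6% were called higher by age. In classes outside the myeloid and mast cell lineages its median level was 3.51 and 1.37 CPM at day 1, 19.8 and 15.5 CPM in room air at day 21 and 22.4 and 24.1 CPM after hyperoxia. A Chil3 UMI was found in 1.5% and 1.43% of gCap cells at day 1 and in 18.3%, 13.8%, 19% and 18% at day 21. By age this low level was higher where that of alveolar macrophages was, which held 94.7% and 92.1% of all Chil3 UMIs in room air at day 21. After hyperoxia they held 80.5% and 87.4%, at 9402 and 10252 CPM, so in the females the outside median was above that in room air while the alveolar macrophage level was below it, and in the males both were above. Free RNA was not tested as its source. Without any 1 of the 4 libraries the call in venous endothelium was lost (2.12 to 2.63), as was that in matrix fibroblasts without the female day 21 library (2.27). Ear1, at 390 and 409 CPM in alveolar macrophages in room air at day 21, had medians of 0.850 and 0.802 CPM in the same outside classes, and at most 0.82% of gCap cells held it. At day 1, Chil3 came from other cells, at 1367 and 1671 CPM in the Neutrophils Ngp+ class and 1472 and 1671 CPM in Classical Monocytes 2.

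Over the 10 classes tested by age, 38 of 65 pairs of a gene and a class were called, 18 higher and 20 lower. Over all genes in these classes 54.3% were called, 28.6% higher and 25.7% lower, so the share is near the background. Csf2rb was called lower in 6 of 9 classes and Ear2 in 5 of 10. Csf2ra was called lower in 4 of 9 and Csf1r in 4 of 10, with 1 higher. Outside alveolar macrophages, the Csf2rb calls were in B cells, NK cells, aCap, gCap and arterial endothelium. In gCap Csf2rb went from 9.11 and 9.90 CPM to 2.35 and 3.51 CPM. In neutrophils it was 300 and 326 CPM at day 1 and 394 and 393 CPM at day 21, without a call (log2 change 0.21). The Ear2 calls were in B cells, neutrophils, aCap, gCap and arterial endothelium. Free RNA was not tested as a source here. In either direction, DESeq2 called Csf2rb in 5 of 9 classes, Ear2 in 3 of 10, Csf2ra in 2 of 9 and Csf1r in 2 of 10. With doublets left out these counts were 3 of 4, 2 of 6, 2 of 7 and 3 of 5. The shares of all genes called over these classes are not given for these settings. In B cells Csf2ra was at 88.8 and 103 CPM at day 1 and 18.3 and 16.7 CPM at day 21. Its log2 change was -2.63 (SE 0.24, adjusted p = 2.66e-05, edgeR), and Csf2rb, Csf1r and Ear2 were called lower there as well. At day 1 all 4 genes stood higher in B cells than in any other class outside the myeloid and mast cell lineages. For Csf2rb that was 125 and 122 CPM, where the next such class had 30.2 and 30.7 CPM. Whether other cells within the B-cell class held these transcripts was not tested. The B-cell change of Csf1r was -2.55 without the female and -0.79 without the male day 21 library, and that of Csf2rb -1.46 without the male one. Several calls at low levels were lost without the female day 1 library, in fits that also had no sex term. Csf1r in aCap was then at -0.40 and Ear2 in neutrophils at -0.61. With doublets left out, the adjusted p of Csf1r in aCap was 0.831 by edgeR. The Csf2rb call in arterial endothelium was lost without any 1 of the 4 libraries (-1.72 to -0.89). Pparg was called higher only in alveolar macrophages and matrix fibroblasts of the 4 classes tested, and in the latter the call was lost without either day 1 library (2.0 and 1.2) or the female day 21 library (1.00). Its change in matrix fibroblasts was 1.52, where genes with introns as long had a median of 1.38 (quartiles 0.61 and 2.39). In neutrophils and gCap, without a call, it was 0.84 and 0.03, below such medians of 1.54 and 1.31. The other age changes outside alveolar macrophages were not set beside genes of like intron length. Nonclassical monocytes, with 32 and 11 cells at day 1, were not tested by age, and their Pparg was 103 and 187 CPM at day 1 and 477 and 480 CPM in room air at day 21.

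Around these genes, other genes of the alveolar macrophage class also differed by age, where 28.9% of all genes were called higher and 25% lower (median log2 change 0.04). These genes were not set beside genes of like intron length, and for them too age and the counting version cannot be told apart. Of 20 tested genes of alveolar macrophage identity, 10 rose and 4 fell (median log2 change 0.53): Cidec, a lipid droplet protein, rose by 3.50, Siglecf by 3.30, the keratin Krt79 by 3.20 and the integrin Itgax (CD11c) by 2.59, while the fatty acid binding proteins Fabp4 (-4.64) and Fabp5 (-3.34), named after their values were seen, fell. Of 11 genes of GM-CSF signalling 2 rose and 7 fell (median -0.69), and with library totals alone 2 rose and 4 fell. The signal carrier Stat5b rose by 1.80, and the STAT-induced feedback genes Cish (-1.36), Socs2 (-1.02) and Socs3 (-4.62) fell. Of 7 monocyte genes 6 fell and none rose (median -3.51), among them Ccr2, the chemokine receptor of recruited monocytes, by 4.60, and Vcan by 4.30. Of 9 genes of the CSF1 axis and resident macrophages 2 rose and 6 fell. The complement genes C1qb (-5.38) and C1qc (-4.17) were among those that fell, and the efferocytosis receptor Mertk rose by 3.22. Markers of other cells went both ways. Of 3 type 2 epithelial markers 2 were called lower (the surfactant genes Sftpc by 2.08 and Sftpb by 1.25). Of 3 endothelial markers only Pecam1 was called (-0.89), a call lost with library totals alone (-0.53), and Cdh5 (0.09) and Cldn5 (-0.62) did not pass. Of 4 neutrophil markers S100a8 was called lower (-3.18) and Csf3r higher (1.01). Of 4 nonclassical monocyte markers Nr4a1 was called lower (-1.58) and Spn higher (0.90). Their part in the changes was not tested.

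After hyperoxia, 2 of the 9 genes tested in alveolar macrophages were called, both lower. Ear1 was 390 and 409 CPM in room air and 285 and 318 CPM after hyperoxia (log2 change -0.46, SE 0.11, adjusted p = 0.0045, edgeR). Csf2ra was 171 and 156 CPM against 132 and 124 CPM (log2 change -0.40, SE 0.10, adjusted p = 0.00865). In both genes the 2 hyperoxia libraries lay below the 2 room air libraries. In this class 10.9% of 11678 genes were called, 9.1% higher and 1.78% lower.

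Of the others, Ear2 was 1051 and 979 CPM against 861 and 779 CPM (log2 change -0.36, SE 0.13, adjusted p = 0.0939) and Csf2rb 318 and 298 CPM against 241 and 289 CPM (-0.27, SE 0.11, adjusted p = 0.163), both lower in 2 of 2 sexes without a call by edgeR. Pparg, at 659 and 627 CPM against 579 and 601 CPM, had a log2 change of -0.18 (SE 0.12). Chil3 (log2 change 0.04, SE 0.27), Marco (0.06, SE 0.11) and Csf1r (0.03, SE 0.12) had values that overlapped between the conditions. Csf1, from 3 to 48 UMIs per library, had a log2 change of 1.53 (SE 0.58, adjusted p = 0.11). The median over the 9 genes was -0.18 against -0.01 over all genes tested.

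The class held more transcripts of other cells after hyperoxia. Their part in the calls was not tested. An endothelial transcript (Cldn5 or Cdh5) was found in 21.8% and 27% of alveolar macrophages in room air and in 42.6% and 37.3% after hyperoxia. Scrublet marked 6.24% and 6.32% of them as doublets in room air and 27.9% and 19.8% after hyperoxia. All 3 endothelial markers tested were called higher (Cldn5 by 3.93), as were 4 of 5 lymphocyte markers, 2 of 4 nonclassical monocyte markers and both cycling genes (Mki67 by 1.58, Top2a by 2.91). Of 3 dendritic cell markers 2 were called higher and Ccl22 lower (-2.24), of 6 monocyte genes 3 were called higher and Fn1 lower (-0.89), and none of the 4 neutrophil or 3 type 2 epithelial markers was called. The summed level of the 3 endothelial markers was 32.6 and 48.2 CPM in room air and 541 and 354 CPM after hyperoxia, and that of the 2 cycling genes 32.7 and 39.8 CPM against 217 and 88.9 CPM. The eosinophil markers, whose cells also make Ear1 and Ear2, had too few counts to be tested.

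With these cells removed the changes of Ear1 and Csf2ra were somewhat smaller and neither passed the test, in fits on fewer cells. With the doublets left out, Ear1 was 402 and 418 CPM against 290 and 351 CPM, and its log2 change of -0.38 had an adjusted p of 0.0692. That of Csf2ra was -0.33 with an adjusted p of 0.104. Neither was called, where 2.14% of 10946 genes were called and 0.521% were called lower. With the cells that held Cldn5 or Cdh5 left out, a choice made after seeing the data, the changes were -0.38 (adjusted p = 0.223) and -0.33 (adjusted p = 0.3), again without a call, where 0.416% of 10581 genes were called and 0.0662% were called lower. Leaving out the Xist-free cells of the female hyperoxia library kept both calls (-0.50, adjusted p = 0.00898, and -0.43, adjusted p = 0.0187). Over all 12 alternatives by edgeR or DESeq2, Ear1 was called in 8 (adjusted p 0.000751 to 0.223) and Csf2ra in 6 (0.00314 to 0.378), and both were lower in each. Without the female hyperoxia library Ear1 had a change of -0.36 (adjusted p = 0.17) and Csf2ra of -0.43 (adjusted p = 0.0647), and Csf2ra also lost its call without the female room air (-0.34) or the male hyperoxia library (-0.38). DESeq2 called none of the 9 genes, of which 3 had an unadjusted p under 0.05, against 5 by edgeR. The share of all genes at that threshold is not given here.

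Of the wider alveolar macrophage genes, 10 of 20 were called lower and none higher after hyperoxia (median log2 change -0.38), where 1.78% of all genes were called lower (median -0.01). Siglecf fell by 0.78 (SE 0.11, adjusted p = 1.6e-05, edgeR) and was called in 12 of 12 alternatives (adjusted p up to 0.0391). The transcription factor Bhlhe41, known to maintain alveolar macrophage identity, fell by 0.71 and Itgax by 0.61, each called in 11 of 12, and Krt79 fell by 0.64 and was called in 9 of 12. With the Xist-free cells left out Siglecf was at -0.74 and Krt79 at -0.69, both called. For Krt79 the change was -0.31 without the female and -1.01 without the male hyperoxia library. With doublets left out 6 of 20 were called lower (median -0.18), where 0.521% of all genes were. With Cldn5- or Cdh5-holding cells left out 2 were called lower (median -0.20), where 0.0662% were. DESeq2 called 5 lower, where it called 0.214% of all genes lower. Of 11 GM-CSF signalling genes 1 was called higher and none lower. Of all genes in the class 9.1% were called higher, so this count is at the background and not a result about these genes. The 1 was Socs3 (1.21, SE 0.28, adjusted p = 0.00397 by edgeR), a call kept by 7 of 12 alternatives with an adjusted p up to 0.996. It was lost without the female hyperoxia (0.80) or the male room air library (1.01).

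**Figure D5:**
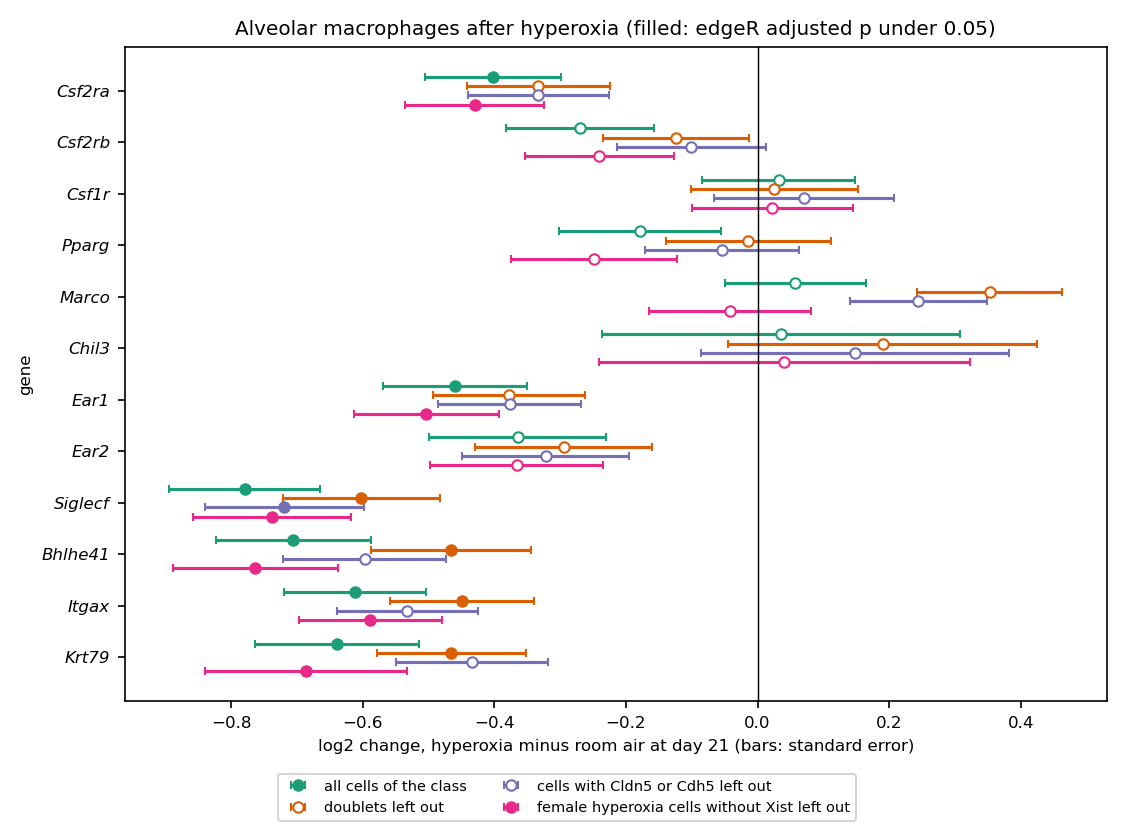
Log2 change between hyperoxia and room air at day 21 in alveolar macrophages under 4 settings, with an SE derived from the F statistic of the test. The genes are 8 of the 10 and Siglecf, Bhlhe41, Itgax and Krt79. Filled points passed an adjusted p of 0.05. Ear1 and Csf2ra are filled with all cells and open with doublets or Cldn5- or Cdh5-holding cells left out, while Chil3 and Marco lie at 0.04 and 0.06.

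Outside alveolar macrophages, 6 of the 13 other classes tested had a call in these genes after hyperoxia, in 10 of 89 pairs of a gene and a class, against 1.58% of all genes in those classes. Over all 14 classes and 98 pairs of a gene and a class 12 were called, 6 higher and 6 lower. Over all genes 2.28% were called, 1.63% higher and 0.654% lower. Besides Ear1 and Csf2ra in alveolar macrophages and Csf1 in capillaries, these were in monocytes, neutrophils and myofibroblasts. Csf1r was called in none of 13 classes by edgeR, where 3 had an unadjusted p under 0.05, or by DESeq2, where 0 had. Of the 98 pairs 29 had an unadjusted p under 0.05 by edgeR. The share of all genes at that threshold is not given here, so these counts have no background beside them.

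With the Xist-free cells of the female hyperoxia library left out, 10 of 93 pairs were called. The share of all genes called in that setting is not given here. Of the 12 calls, that of Ear2 in classical monocytes was lost (-0.35, adjusted p = 0.0875), and Marco in nonclassical monocytes no longer had the counts to be tested. Chil3 was at 0.67 in classical monocytes and 2.80 in myofibroblasts (adjusted p = 0.0235), and Csf2rb at -0.29 in nonclassical monocytes (adjusted p = 0.0397). Only 92 of the 871 neutrophils of that library held an Xist UMI (10.6%). In the other classes with a call, 48.6% to 71.6% of the cells of that library were kept. With the Xist-free neutrophils left out, the neutrophil changes described next were 1.54 for Chil3, 3.46 for Pparg and 2.18 for Ear2, all larger and all called. The filter was set on this library alone, so the kept cells are not compared with like cells. The larger changes therefore do not strengthen the calls, and those of Pparg and Ear2 were not kept with doublets left out.

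In classical monocytes, where 1.76% of genes were called, Ear2 was lower (95.9 and 130 CPM against 77.2 and 90.8; log2 change -0.39, SE 0.10, adjusted p = 0.0114 by edgeR), in 2 of 2 sexes and in 5 of 12 alternatives (adjusted p up to 1). That call was lost without the female (-0.28) or male hyperoxia library (-0.54) and without the male room air library (-0.15). Chil3 was higher there (430 and 578 CPM against 475 and 953; 0.45, SE 0.08, adjusted p = 1.45e-05), but the change was -0.087 without the male hyperoxia library and 0.30 without the female room air library, neither called, and 0.95 without the female hyperoxia library. In nonclassical monocytes, where 6.03% were called, Csf2rb was 152 and 125 CPM against 110 and 114 (-0.34, SE 0.08, adjusted p = 0.0329), kept in 5 of 12 alternatives (adjusted p up to 0.725) and lost without the female (-0.31) or male hyperoxia library (-0.37) or the female room air library (-0.21).

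Csf2rb was the gene of the set lower in the most classes at an unadjusted p under 0.05 after hyperoxia. It was 179 and 163 CPM against 137 and 145 in classical monocytes (log2 change -0.26, SE 0.09, adjusted p = 0.161 by edgeR) and 394 and 393 against 312 and 291 in neutrophils (-0.42, SE 0.09, adjusted p = 0.0845). With alveolar macrophages and nonclassical monocytes that makes 4 of 4 myeloid classes tested in which it was lower in 2 of 2 sexes. Of these only nonclassical monocytes passed the test. Dendritic cells, basophils and interstitial macrophages had too few cells to be tested. The male values of Csf2rb in alveolar macrophages were close, at 298 CPM in room air and 289 CPM after hyperoxia. Of 12 classes tested, 7 had an unadjusted p under 0.05 by edgeR, all lower, and with doublets left out 4 of 7. By DESeq2 only 2 of the 12 had, and 1 was called. The share of all genes at an unadjusted p under 0.05 is not given here, so these counts have no background beside them. The classes come from the same 4 libraries and are not independent.

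In nonclassical monocytes Marco rested on 5 and 8 UMIs against 11 and 40 (2.66, SE 0.51, adjusted p = 0.00776) and lost its call without the male hyperoxia library (1.14, adjusted p = 0.755, the highest over its alternatives).

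Neutrophils, where 0.365% of genes were called higher, had Chil3 at 155 and 121 CPM in room air and 217 and 239 CPM after hyperoxia (log2 change 0.69, SE 0.13, adjusted p = 0.047, edgeR), where classes outside the myeloid and mast cell lineages had medians of 15.5 to 24.1 CPM. This call held in 11 of 12 alternatives and was lost without the male room air library (0.51, adjusted p = 0.199, the highest of them). Their Pparg (6.16 and 2.16 CPM against 19.2 and 14.2; 1.98, SE 0.30, adjusted p = 0.0255) and Ear2 (8.51 and 6.31 CPM against 19.6 and 14.6; 1.17, SE 0.21, adjusted p = 0.0455) rested on low levels. With doublets left out those changes were -0.89 and 0.03. In myofibroblasts, where 2.45% of genes were called higher, Chil3 was 20.4 and 15.7 CPM against 238 and 31.8 (2.51, SE 0.31, adjusted p = 4.37e-10). That call came from the female hyperoxia library, with 202 UMIs in 18 of 73 cells, and without that library the change was 0.86 (adjusted p = 0.588, of a range up to 1). The call was also lost without the female (3.10) or the male room air library (2.72).

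Lymphatic endothelial cells (23, 36, 64 and 54 cells) were too few to test, and their values went with monocyte transcripts. After hyperoxia Csf1r was 319 and 275 CPM against 38.5 and 53.7 CPM in room air, and Pparg 231 and 202 CPM against 67.3 and 32.2. The summed nonclassical monocyte markers rose in the same libraries from 159 and 276 CPM to 1336 and 918 CPM, and 75% to 93.8% of these cells were marked as doublets. What part of the Csf1r and Pparg these account for was not tested.

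Genes whose pattern resembled these most were found by Pearson's r of log2(CPM + 1) over 112 sums of a class in a library, among 16424 genes. This is a description, because the sums share libraries and depth. Csf2rb was closest to its neighbour Csf2rb2 (0.95), then to Alox5ap and Spi1 (0.94 each). Csf2ra was closest to Rab32 (0.95) and Csf1r to Cd300c2 (0.95) and Clec4a3 (0.94). Ear1 was closest to Cidec (0.92) and Marco to Gm6116 (0.92), while Ear2 was closest to Sh2d1b1 (0.93) and had only 0.59 with Ear1. The ligands were less well matched: Csf2 with Igsf9b (0.76), Sema4f (0.75) and Areg (0.74), and Csf1 with Igf1r (0.79). Pparg reached 0.85 with Lilra5 and Abhd12, and Chil3 0.73 with Gm47507.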

How the data were processed

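The authors counted UMIs per gene and barcode with Cell Ranger, version 6.0.0 at day 1 and 7.0.1 at day 21, per the file headers, and deposited the counts as whole numbers. The submitters' processing notes name mm10, Cell Ranger 6.0.0 and Seurat 4.1.1. Cell classes are the deposited cluster names. How the authors treated doublets is not given in the sources used here, and all cells with a class entered the main values. Of the gene IDs 99.6% were in GENCODE M21 (GRCm38), the source of positions and intron lengths.

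For each library the counts of a class were added up, and classes that had 50 or more cells in all 4 libraries of a comparison (14 for hyperoxia, 10 for age) were tested with edgeR 4.0.16 (filterByExpr, TMM scaling, quasi-likelihood test, sex as covariate) in R 4.3.3 with limma 3.58.1. Benjamini-Hochberg adjustment ran over all genes of a class, and an adjusted p under 0.05 was a call. The SE of an edgeR change was not estimated directly. It is the absolute log2 change divided by the square root of the F statistic of the test. That statistic draws on the spread of all genes of a class, so a small SE can go with unlike changes in the sexes. Chil3 in classical monocytes had an SE of 0.08, with 430 to 475 CPM in the females and 578 to 953 CPM in the males. In myofibroblasts its SE was 0.31, with 20.4 to 238 CPM in the females and 15.7 to 31.8 CPM in the males. The fits were checked on simulated counts. Intervals are exact at 95% and, with the floor of 3 UMIs for a count of 0, cover counting error only. For shares at equal depth each cell was thinned to 2000 UMIs. Doublets were the barcodes with the highest Scrublet scores (scanpy 1.11.5), at 0.8% per 1000 barcodes, since the automatic threshold marked only 0.177% in 1 library.

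Alternatives were no filter on low counts, DESeq2 1.42.0, upper-quartile scaling, no sex covariate, leaving out each library, leaving out doublets, a stricter cell filter (at least 1000 genes, at most 10% mitochondrial UMIs), the Xist-free cells of the female hyperoxia library left out, and, added after seeing the data, cells with Cldn5 or Cdh5 left out and, for alveolar macrophages by age, library totals in place of TMM. The fits with 1 library left out had no sex term. All 10 genes were named, with up to 4 called genes of each list by smallest adjusted p and the 3 genes most alike in pattern. The genes and lists were chosen with earlier results of these data known.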

Additional observations from a re-analysis of the deposited data

How the results depend on the processing

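Of the 98 pairs of a gene and a class tested for hyperoxia, 12 were called, and 9 to 12 with 1 library left out in turn. Those fits tested 98 to 104 pairs. With no filter on low counts 19 of 135 were called. DESeq2 called 3 of 98 (1 higher, 2 lower), the fit with no sex covariate 4 of 98, and with doublets left out 4 of 74 were called (1 higher, 3 lower). Shares of all genes called over these classes are not given for each setting, here or by age. In alveolar macrophages after hyperoxia that share was 10.9% with all cells and 2.14% with doublets left out. Counts of different settings therefore do not have the same background. In the 4 myeloid classes refitted with Cldn5- or Cdh5-holding cells left out, 4 of 31 were called, against 9 with all cells. By age 38 of 65 pairs were called (58.5%), 32 to 36 of 70 to 73 with 1 library left out, 24 of 65 by DESeq2 and 25 of 42 with doublets left out (59.5%). Over all named results and alternatives, 1005 values kept their direction and their side of the threshold, 197 lost a call, 6 gained one and 13 changed sign.

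Those that changed sign in alveolar macrophages were, for hyperoxia, Marco (-0.042 without Xist-free cells, -0.062 to 0.18 with 1 library left out), Csf1r (-0.00137 with no filter on low counts, -0.060 to 0.10 with 1 library left out), Chil3 (-0.17 to 0.23) and the B-cell marker Cd79a (-0.96 to 4.1), and, by age, Marco (-0.80 to 0.49 with 1 library left out, 0.21 with library totals alone). Elsewhere they were Chil3 in classical monocytes (-0.087 to 0.95 with 1 library left out), Pparg in neutrophils for hyperoxia (-0.89 with doublets left out) and Csf1r in aCap by age (0.18 with doublets left out). The cause was not tested. Doublet calls fell heavily on some small classes, so that setting also removes cells. The fit sets each library against the one of the same sex through its sex term. The fit with no sex covariate lacks this pairing by sex, and so do the fits with 1 library left out. Where a call was lost in the latter, the missing library and the missing sex term cannot be told apart.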
